A study of Mus musculus with 2 samples.

Results

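The genes examined here are the ligands, receptors, Smads and repressor of the transforming growth factor beta (TGF-beta) pathway, a set of 10 named genes. A gene counted as measured when at least 1 spot of the array carried its symbol and no other. By that rule 9 of the 10 were measured, out of 10791 genes with a value on either array: Tgfb1, Tgfb2, Tgfbr1, Tgfbr2, Tgfbr3, Smad2, Smad3, Smad7 and Tgif1. They rest on 24 spots, which came from 18 clones, and all 24 gave a value on both arrays. Tgfb3 lies only on a spot whose annotation also names Casp8ap2 and is not counted.

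The study exposed mouse flexor tendon cells to shear, a sliding force, and compared them with control cells. Each of the 2 arrays carried a control and a sheared sample in different dyes: pooled cells at 6 h on one, tenocytes at 12 h with shear labelled as 50 rpm on the other. Control RNA was in Cy3 and sheared RNA in Cy5. The labels give no strain, age, genotype or passage, and the rotation speed is not given for the 6 h cells. With 1 array per time point and no dye swap, no difference could be tested, and a response to shear and a dye effect cannot be told apart. In such bulk RNA, fewer cells of a type and less RNA per cell cannot be told apart either.

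TGF-beta is a secreted factor that drives matrix production in fibroblasts, and in tendon it is known for its part in tendon formation, in responses to load and in scar. The ligand binds the type II receptor Tgfbr2, which recruits and phosphorylates the type I receptor Tgfbr1. That kinase then phosphorylates Smad2 and Smad3, which enter the nucleus with Smad4. The co-receptor Tgfbr3 (betaglycan) presents ligand, Smad7 blocks the activated type I receptor, and Tgif1 is a homeodomain repressor that binds Smads in the nucleus.

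All values below are log2 ratios, likely sheared over control, after each array was centred on its median spot. The base of 2 is assumed, and the direction is read from the labelled dyes together with the usual red-over-green convention; if it were the other way, every sign below would turn. The 6 h array had 39776 measured spots and the 12 h array 41717, and the subtracted medians were -0.323 and -0.479. A gene's value is the median of its spots. The only error available is the SD between spots of a gene, which pooled over genes with several spots was 0.738 at 6 h and 0.855 at 12 h. It covers clones and spots, not cultures, and the files give no signal from which depth could be read. The table holds ratios, not levels, so the tenocyte identity of the cells could not be checked. Of 10 tendon markers 5 were measured, with medians of 0.11 at 6 h and -0.05 at 12 h.

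Shear-treated cells showed lower ratios for the receptors of the pathway and for Smad2, Smad3 and Smad7. The ratios were higher for the repressor Tgif1 and opposite for the 2 measured ligands. Tgfbr1, Tgfbr3, Smad7 and Tgif1 each rest on 1 spot. At 6 h, 7 of the 9 measured genes were at least 1.5-fold lower and 1 was at least 1.5-fold higher, while among all 10346 genes of that array 31.3% were that much lower and 18.2% higher. At 12 h, 7 were lower and 2 higher, against 33.1% and 24.4% of 10731 genes. The same 7 genes, Tgfb2, Tgfbr1, Tgfbr2, Tgfbr3, Smad2, Smad3 and Smad7, were lower on both arrays, which held for 20.5% of all genes on both arrays. The median of the 9 was -0.76 at 6 h and -1.61 at 12 h, beside -0.11 and -0.14 for all genes.

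**Figure D1:**
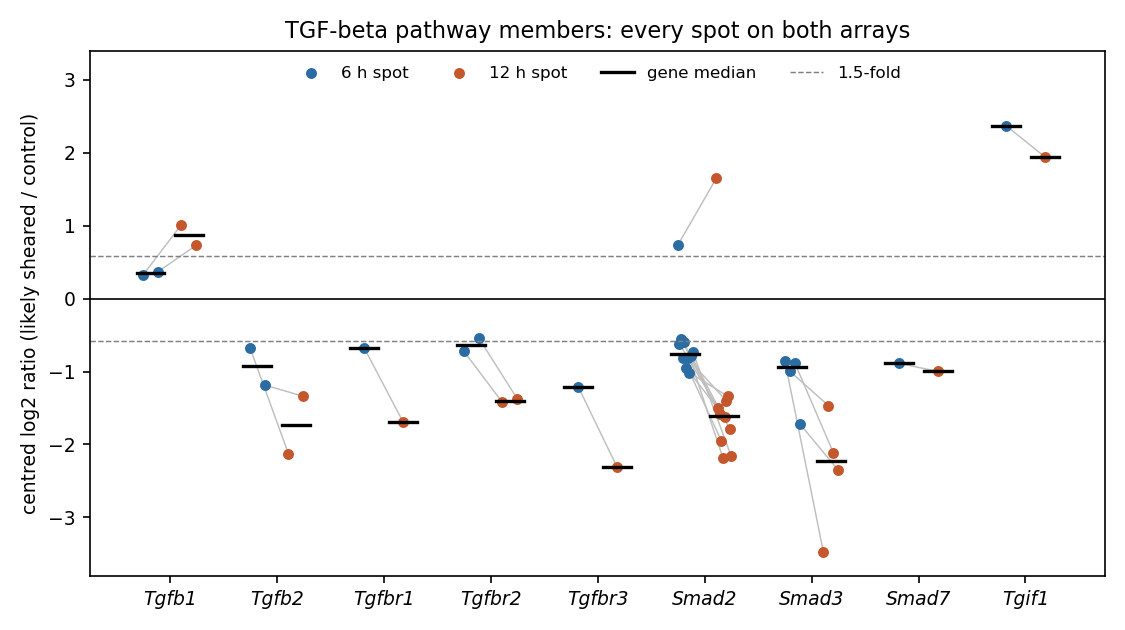
Centred log2 ratio of every spot of the 9 measured genes, 6 h in blue and 12 h in orange. Grey lines join the same spot on both arrays, black bars are gene medians and dashed lines mark 1.5-fold. Tgif1 and both Tgfb1 spots lie above 0, and 1 of the 10 Smad2 spots lies apart from the other 9.

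Promoter sequence was available for a few of these genes. The 250 bases before the annotated start are shown for the ligand with higher ratios, Tgfb1, and for Tgfbr2 and Smad3, which had lower ratios on several spots, since these windows overlap no other annotated gene. They come from RefSeq on GRCm38.p6 and read 5′ to 3′ on the gene's strand: chr7:25686752-25687001 (+) for Tgfb1, chr9:116175364-116175613 (-) for Tgfbr2 and chr9:63757995-63758244 (-) for Smad3. Capitals mark CAGAC, a motif bound by Smads, GGGCGG, a GC box bound by Sp1-type factors, or TGANTCA, the AP-1 site, each on either strand.
Tgfb1: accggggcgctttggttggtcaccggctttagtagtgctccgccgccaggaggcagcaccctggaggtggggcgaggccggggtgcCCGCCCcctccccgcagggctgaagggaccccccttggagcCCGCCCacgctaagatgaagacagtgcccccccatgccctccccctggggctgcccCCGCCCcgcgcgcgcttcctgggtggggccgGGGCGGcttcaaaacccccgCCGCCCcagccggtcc
Tgfbr2: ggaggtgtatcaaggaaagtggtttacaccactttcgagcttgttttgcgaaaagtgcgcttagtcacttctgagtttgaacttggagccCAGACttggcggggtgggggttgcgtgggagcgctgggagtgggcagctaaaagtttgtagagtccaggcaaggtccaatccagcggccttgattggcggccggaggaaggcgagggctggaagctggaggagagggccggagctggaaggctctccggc
Smad3: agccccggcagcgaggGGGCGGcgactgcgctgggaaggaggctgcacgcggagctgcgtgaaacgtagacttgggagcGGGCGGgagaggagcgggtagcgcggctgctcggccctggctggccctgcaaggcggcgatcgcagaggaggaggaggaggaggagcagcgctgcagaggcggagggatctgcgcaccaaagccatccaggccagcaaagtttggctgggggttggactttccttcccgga
Tgfb1 held 5 GC boxes and no CAGAC, Smad3 held 2 GC boxes and no CAGAC, and Tgfbr2 held 1 CAGAC and no GC box. None of the 3 windows held TGANTCA or the full palindrome GTCTAGAC, which shares only AGAC with CAGAC and was counted separately. AGAC alone was neither marked nor counted, and it occurs in lower case in the Tgfb1 and Smad3 windows. Over all 32851 promoter windows of that length, 42.2% held CAGAC, 32.7% GGGCGG, 6.75% TGANTCA and 0.167% the palindrome. The G and C content was 75.2% for Tgfb1, 69.2% for Smad3 and 58.4% for Tgfbr2, against a median of 52.4% over all windows. A match here describes letters in a window and shows no binding.

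After centring, the ligands went opposite ways. Tgfb1, the main ligand of fibroblasts and blood platelets, lies on chromosome 7 from 25687002 to 25705077. Its 2 spots read 0.32 and 0.37 at 6 h, and 1.02 and 0.73 at 12 h. All 4 readings were above 0 after centring. The gene medians were 0.35 (spot SD 0.03, n = 2 spots), a 1.27-fold higher ratio that did not reach 1.5-fold, and 0.87 (spot SD 0.20), or 1.83-fold. At 6 h this lay within the pooled spot SD, and at 12 h it stood just beyond it. As deposited, without centring, the 2 spots read 0.000 and 0.046 at 6 h. The gene then stood at 0.02 at 6 h and 0.40 at 12 h, short of 1.5-fold at both times.

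Tgfb2, a ligand that needs the co-receptor for efficient receptor binding, lies on chromosome 1 from 186622787 to 186709697. Its 2 spots read -0.67 and -1.19 at 6 h, and -2.13 and -1.34 at 12 h. All 4 lay below 0 and past 1.5-fold. The medians were -0.93 (spot SD 0.36, n = 2 spots) at 6 h and -1.73 (spot SD 0.56) at 12 h, a 3.33-fold lower ratio at the later time. Among all genes, Tgfb2 stood at percentile 20.6 at 6 h and 7.9 at 12 h, while Tgfb1 stood at 71.4 and 82.8. The spot shared by Tgfb3 and Casp8ap2 read -0.05 at 6 h and -0.55 at 12 h, and cannot be assigned to either gene.

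All 3 receptors had lower ratios on both arrays. Tgfbr2, the type II receptor kinase (chromosome 9, 116087695 to 116175363), was read by 2 clones, at -0.72 and -0.54 at 6 h and at -1.42 and -1.38 at 12 h. The clones differed little, and their medians of -0.63 (spot SD 0.13, n = 2 spots) and -1.40 (spot SD 0.03) correspond to 1.55-fold and 2.64-fold lower ratios. Tgfbr1, the type I receptor kinase (chromosome 4, 47353222 to 47414926), had 1 spot, which read -0.68 at 6 h and -1.69 at 12 h. Tgfbr3, the co-receptor (chromosome 5, 107106567 to 107289629), also had 1 spot, at -1.21 and -2.30, a 4.94-fold lower ratio at 12 h. No second spot bears on the values of Tgfbr1 and Tgfbr3. At 6 h the ratios of Tgfbr1 and Tgfbr2 were smaller in size than the pooled spot SD, and that of Tgfbr3 was larger. At 12 h all 3 exceeded it.

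Smad2 was the best covered of the genes, with 10 spots from 5 clones. Of these, 9 spots from 4 clones read between -1.02 and -0.55 at 6 h with a median of -0.78, and between -2.19 and -1.34 at 12 h with a median of -1.63. Their SD, with the remaining spot set aside for its value, was 0.16 at 6 h and 0.31 at 12 h. The remaining spot, of a clone of its own, read 0.73 at 6 h and 1.65 at 12 h. It lay above 0 on both arrays, apart from the other 9, and the reason was not tested. Over all 10 spots the gene medians were -0.76 (spot SD 0.50) and -1.61 (spot SD 1.11), a 1.69-fold and a 3.05-fold lower ratio, and the spot SD at 12 h was above the pooled 0.855. A single clone supplied 5 of the spots, and these repeats ranged from -1.02 to -0.60 at 6 h and from -2.19 to -1.34 at 12 h.

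Smad3, the other Smad activated by Tgfbr1 (chromosome 9, 63646766 to 63757994), had 4 spots from 3 clones. They read -0.85, -0.995, -0.88 and -1.72 at 6 h, and -3.47, -1.47, -2.11 and -2.35 at 12 h. All 8 readings were below 0 and past 1.5-fold. The medians were -0.94 (spot SD 0.41, n = 4 spots) and -2.23 (spot SD 0.83), so that the 12 h ratio was 4.70-fold lower. The spot with the least negative reading at 6 h gave the most negative one at 12 h, so the order of the spots was not kept.

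The inhibitors differed from each other. Smad7, which TGF-beta itself induces in many cells and which then shuts off the receptor, had 1 spot, at -0.89 at 6 h and -0.998 at 12 h. The second value fell just short of 2-fold. Tgif1 (chromosome 17, 70844205 to 70853532) also had 1 spot, at 2.37 at 6 h and 1.95 at 12 h, or 5.17-fold and 3.85-fold higher. This placed it at percentile 99.7 of all genes at 6 h and 97.0 at 12 h. Neither value could be checked on another spot.

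In order at 6 h, the ratios ran from Tgfbr3 through Smad3, Tgfb2, Smad7, Smad2, Tgfbr1 and Tgfbr2 to Tgfb1 and Tgif1. Neighbours within the 7 lower genes were at most 0.27 apart, less than the pooled spot SD, so their order is not resolved. Only the steps from Tgfbr2 to Tgfb1 (0.98) and from Tgfb1 to Tgif1 (2.02) exceeded that SD. At 12 h the order was Tgfbr3, Smad3, Tgfb2, Tgfbr1, Smad2, Tgfbr2, Smad7, Tgfb1 and Tgif1. Again only the steps on either side of Tgfb1, 1.87 and 1.07, exceeded the pooled spot SD of that array. That SD describes single spots, while a step is a difference between 2 genes, each with its own spot error and number of spots. Whether 0.98 at 6 h and 1.07 at 12 h would pass the SD of such a difference was not worked out.

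The lower ratios were further from 0 at 12 h than at 6 h. The 6 h cells were labelled as pooled and without a rotation speed, unlike those at 12 h. Time therefore cannot be told apart from pooling, speed or the array itself. Of the 24 spots, 21 read lower at 12 h than at 6 h, against 43.0% of the 20414 single-gene spots on both arrays. The 3 exceptions were both Tgfb1 spots and the Smad2 spot that lay above 0. As gene medians, 6 of the 9 were at least 1.5-fold lower at 12 h than at 6 h and none was that much higher, against 17.4% and 24.9% of 10286 genes. These were Tgfb2 (-0.81), Tgfbr1 (-1.01), Tgfbr2 (-0.77), Tgfbr3 (-1.09), Smad2 (-0.85) and Smad3 (-1.29). Smad7 differed by -0.11, Tgif1 by -0.42 and Tgfb1 by 0.53. The SD between spots of a gene of the 12 h minus 6 h difference of the same spot, pooled over 5340 genes, was 0.74, and those 6 differences exceeded it. If the arrays' spot errors are instead taken as independent, that SD is 1.13 and only Smad3 exceeded it. For Smad3 this held for the difference of the gene medians. Its 4 spots differed by -2.62, -0.47, -1.23 and -0.64, and with print blocks centred the gene differed by -1.02, short of 1.13. The paired SD was added after the data were seen. Log ratios were also wider on the 12 h array, with an SD over all genes of 1.146 against 1.003. With both arrays brought to the same spread, only Tgfbr1 (-0.74), Tgfbr3 (-0.69) and Smad3 (-0.94) of these 6 stayed at least 1.5-fold lower at 12 h, and Tgif1 (-0.92) passed that bound as well. Tgfb2 (-0.50), Tgfbr2 (-0.54) and Smad2 (-0.58) then fell short of it, Smad7 turned to 0.11, and the median difference was -0.58 in place of -0.81.

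**Figure D2:**
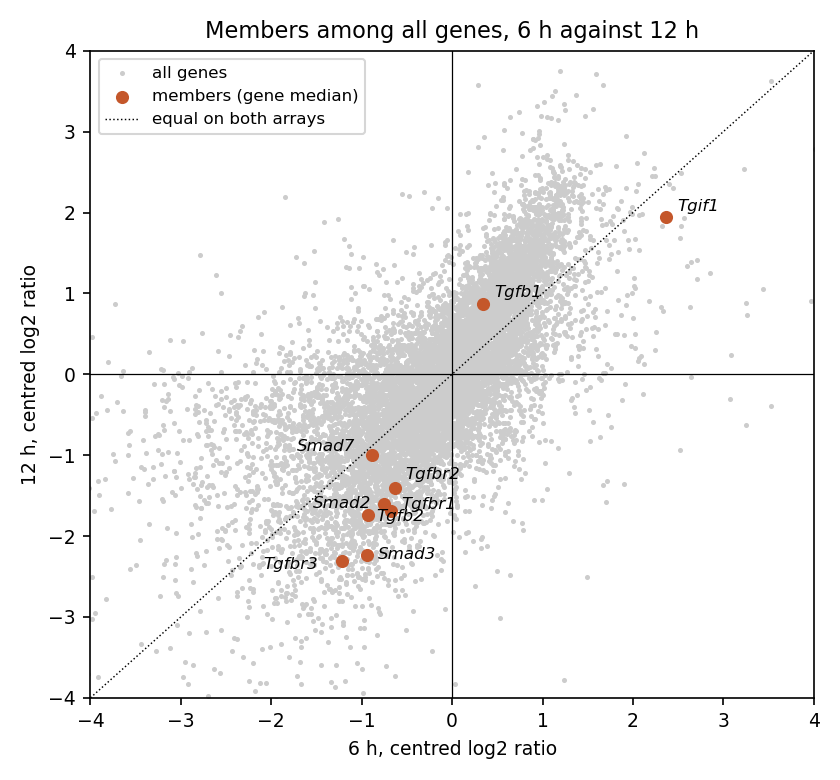
Gene medians on the 6 h array (horizontal) against the 12 h array (vertical), centred log2 ratios, with the 9 measured genes in orange among all genes in grey; axes end at -4 and 4. Tgfb2, the receptors, Smad2 and Smad3 lie below the dotted line of equal ratios, Smad7 lies close to it, and Tgif1 and Tgfb1 lie in the upper right.

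The log ratios also followed the size of the gene. Across the 10265 genes with a known genomic span, exons and introns together, the Spearman correlation of span with log ratio was -0.32 at 6 h and -0.40 at 12 h. Across the 9 pathway genes it was -0.78 and -0.88, as a description over genes that share 1 array and 1 dye layout. Tgif1 (9.3 kb) and Tgfb1 (18.1 kb) have the shortest spans of the 9, followed by Smad7 (28.6 kb). Tgfbr1 spans 61.7 kb, Smad2 70.7 kb, Tgfb2 86.9 kb, Tgfbr2 87.7 kb, Smad3 111.2 kb and Tgfbr3 183.1 kb, and 5 of these 6 fall in the longest quintile of all genes. In that quintile, 56.0% of genes were at least 1.5-fold lower at 6 h and 59.7% at 12 h, against 24.1% and 16.9% in the shortest quintile.

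Set against genes of like span, the 6 h ratios of most of the 7 lower genes came close to the median, while the 12 h ratios stayed below it. When the median of each quintile of span was subtracted, 1 of the 9 was at least 1.5-fold lower at 6 h in place of 7, namely Smad7 at -0.93. Tgfbr2 then stood at 0.07, Smad2 at -0.05, Tgfb2 at -0.22 and Smad3 at -0.23. Tgfbr1 at -0.47 and Tgfbr3 at -0.51 stayed further below, short of 1.5-fold. At 12 h, 7 were lower as before: Tgfbr3 at -1.49, Smad3 at -1.42, Tgfbr1 at -1.34, Smad7 at -1.05, Tgfb2 at -0.92, Smad2 at -0.79 and Tgfbr2 at -0.58, the last on the bound. Tgif1 stood at 2.22 and 1.69 and Tgfb1 at 0.30 and 0.82. The share of all genes past 1.5-fold after this subtraction was not worked out, so the counts of 1 and 7 have no background. Among genes of the same quintile, the 7 lower genes stood at percentiles from 15.5 (Smad7) to 53.9 (Tgfbr2) at 6 h. At 12 h they stood at percentiles from 7.5 (Tgfbr1) to 29.7 (Tgfbr2). The comparison by span was chosen after seeing the data. The part of span in the ratios was not tested, and transcript length was not used here.

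**Figure D3:**
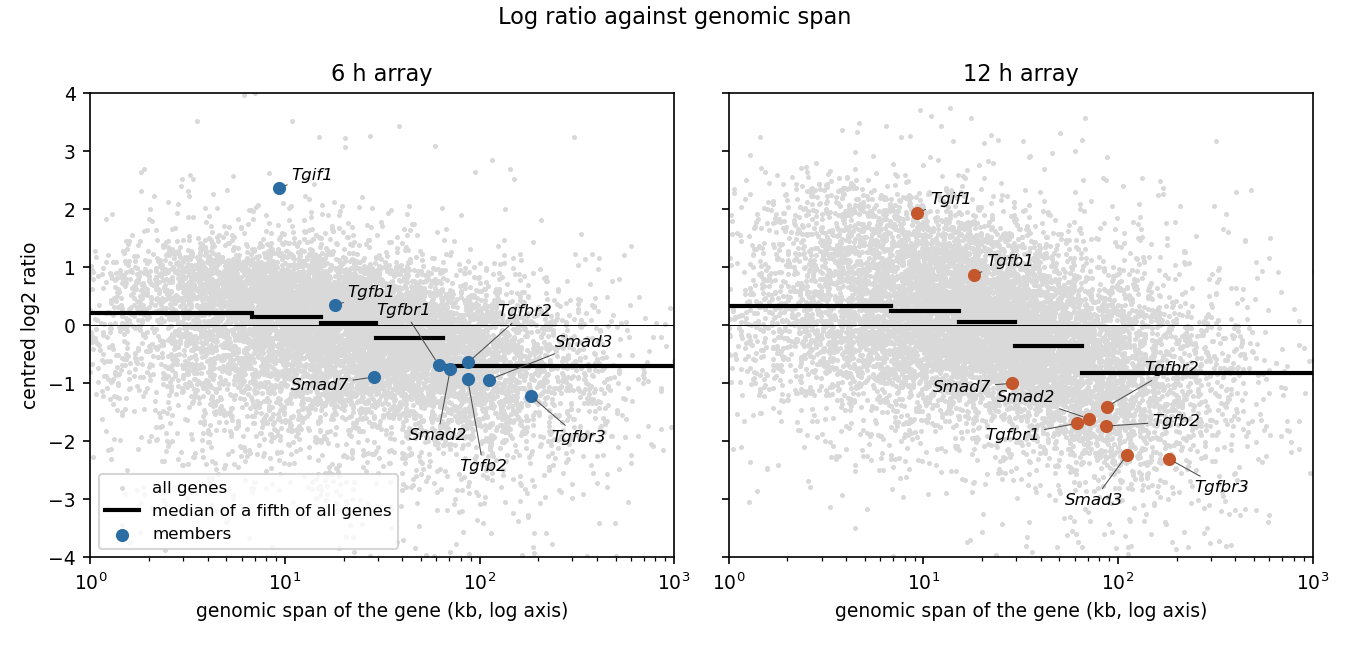
Centred log2 ratio against genomic span in kb on a log axis, 6 h on the left and 12 h on the right. Grey points are all genes, black bars the medians of 5 equal groups by span, and coloured points the 9 measured genes. The bars step down with span, to -0.70 at 6 h and -0.81 at 12 h in the longest quintile, and at 12 h the 7 lower genes lie below the bar of their quintile.

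The wider pathway was less one-sided than the 9 genes. Of 143 other genes in 8 lists, 105 were measured at 6 h; past 1.5-fold, 35 stood lower and 14 higher, and the median was -0.12. At 12 h, 106 were measured, 37 were lower and 25 higher, and the median was -0.22. The shares of lower genes, with the background above at 31.3% and 33.1%, were close to those of all genes. The lists also differ from the 9 in genomic span. Of 105 list genes with a known span, 56 lie in the longest 2 quintiles, against 6 of the 9. The part of span in this contrast was not tested.

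Regulators of the Smads were the largest of these lists. Of 27 measured, 10 were lower and 2 higher at 6 h, and 16 lower and 3 higher at 12 h. The medians were -0.41 and -0.96. At 6 h the share of lower genes was near that of all genes. It was below the 5 of 7 of the activin arm, a count that moved with the processing. Of these 27 genes, 22 lie in the longest 2 quintiles of genomic span. Usp9x, a deubiquitinase that acts on Smad4, stood at -1.99 (spot SD 0.34, 6 spots) and -3.03 (spot SD 0.31). Crebbp, an acetyltransferase coactivator of Smads, stood at -1.79 (spot SD 0.27, 4 spots) and -1.76 (spot SD 1.91). Against these, Zfyve9 (SARA), which anchors Smad2 and Smad3 at the receptor, stood at 2.71 and 1.18 on 1 spot. The following, which lie on both sides of 0, were chosen after their values were seen. Smad4, the partner of the activated Smads, stood at -0.41 (spot SD 0.20, 2 spots) and -0.96 (spot SD 0.06). The inhibitory Smad6 stood at -1.12 (spot SD 0.37, 2 spots) and -1.50 (spot SD 0.38). The ubiquitin ligase Smurf2, which degrades the receptors together with Smad7, stood at -0.92 (spot SD 0.21, 2 spots) and -1.97 (spot SD 0.06). Skil (SnoN), a Smad repressor, stood at -0.30 (spot SD 0.07, 2 spots) and -1.95 (spot SD 0.25). Smad1 and Smad5, which act in the bone morphogenetic protein arm, stood at 0.20 (spot SD 0.28, 2 spots) and -0.43 (spot SD 0.02), and at 0.01 (spot SD 0.41, 3 spots) and 0.13 (spot SD 0.20). The chaperone Hspa8 stood higher, at 1.27 (spot SD 0.26, 7 spots) and 1.76 (spot SD 0.25).

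Of 18 measured genes that hold or release latent ligand, 6 were lower and 1 higher at 6 h, and 6 were lower and 6 higher at 12 h. The shares of lower genes were near those of all genes, 31.3% at 6 h and 33.1% at 12 h. Higher ratios were held by 18.2% of all genes at 6 h and 24.4% at 12 h. Of the 18 genes, the 6 higher at 12 h became 1 without centring, where the median turned from 0.15 to -0.33, and also 1 at 2-fold. The integrin subunits Itgb3 and Itgb8, whose heterodimers with alpha-v bind latent TGF-beta, stood at -2.48 and -2.21 at 6 h and at -1.87 and -1.45 at 12 h, each on 1 spot. Thbs1, thrombospondin 1, an activator of latent ligand, stood at -0.99 (spot SD 0.21, 2 spots) and -1.56 (spot SD 0.73). Among 7 accessory receptors and decoys, 3 were lower and 1 higher at 6 h, and 1 lower and 1 higher at 12 h. The higher one was Bambi, a kinase-less decoy receptor, at 1.53 and 1.56 on 1 spot. The co-receptor Nrp1 stood at -0.88 (spot SD 0.77, 3 spots) and -1.95 (spot SD 1.47), and the endothelial type I receptor Acvrl1 at -0.88 and -0.26 on 1 spot.

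The activin arm, which uses the same Smad2 and Smad3, had 7 measured genes. Of these 5 were lower and 1 higher at 6 h, and 2 were lower and 2 higher at 12 h. Among all genes, 31.3% were lower and 18.2% higher at 6 h, and 33.1% lower and 24.4% higher at 12 h. The 5 lower at 6 h became 3 with print blocks centred, at 2-fold, or with 2 or more spots required. The 1 higher at 6 h became 0 without centring or at 2-fold, and 4 were lower at 12 h without centring. Its receptors Acvr1b (1 spot) and Acvr2b (spot SD 1.20 and 0.83, 2 spots) stood at -1.10 and -1.51 at 6 h and at -2.07 and -1.25 at 12 h. The activin-binding antagonist Fstl3 stood at 0.60 (spot SD 0.01, 2 spots) and 2.31 (spot SD 0.01), or 4.95-fold higher at 12 h. In the non-Smad branch, 6 of 19 genes were lower and 2 higher at 6 h, and 6 lower and 5 higher at 12 h. The kinase Map2k3 stood at 1.52 (spot SD 0.20, 2 spots) and 1.28 (spot SD 0.15), and the phosphoinositide kinase subunit Pik3r1 at -1.42 (spot SD 1.67, 3 spots) and -1.90 (spot SD 2.34).

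The balance among genes known to respond to TGF-beta depended on the centring of the arrays. Of those it raises in fibroblasts, 22 were measured at 6 h, 4 of them lower and 4 higher (median -0.05), and 23 at 12 h, 5 of them lower and 5 higher (median -0.19). Among all genes, 31.3% were lower and 18.2% higher at 6 h, and 33.1% lower and 24.4% higher at 12 h. Without centring, 9 of the listed genes were lower and 3 higher at 6 h (median -0.37), and 12 lower and 4 higher at 12 h (median -0.67). Leaving out centring lowers every gene of an array by the same amount, so this shift is not particular to these genes. The share of all genes past 1.5-fold without centring was not worked out. Among the genes that TGF-beta raises, Snai2, a transcription factor of mesenchymal cells, stood at -1.01 (spot SD 0.06, 2 spots) and -2.31 (spot SD 0.25). The early response gene Klf10 stood at 1.74 and 1.43 on 1 spot, and the angiogenic factor Vegfa at 1.41 (spot SD 0.13, 2 spots) and 1.69 (spot SD 0.87). Of 6 genes that TGF-beta lowers, 2 were higher and 1 lower at 6 h, and 3 higher and 1 lower at 12 h. The growth regulator Myc stood at 2.33 (spot SD 0.23, 3 spots) and 0.78 (spot SD 0.22). Id2 stood at 1.06 (spot SD 0.31, 5 spots) and 1.63 (spot SD 0.43), and Id3 at -1.10 (spot SD 1.56, 3 spots) and -2.48 (spot SD 2.17, 4 spots); both are inhibitors of helix-loop-helix factors. Of the 7 tendon genes downstream, 2 had a value at 6 h, with 1 higher and none lower, and 3 at 12 h, with 2 higher and 1 lower. The collagen-binding proteoglycan Fmod stood at 0.55 (spot SD 0.33, 2 spots) and 0.75 (spot SD 0.33), and the mechanically induced factor Egr1 at 0.67 and -1.81 on 1 spot.

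**Figure D4:**
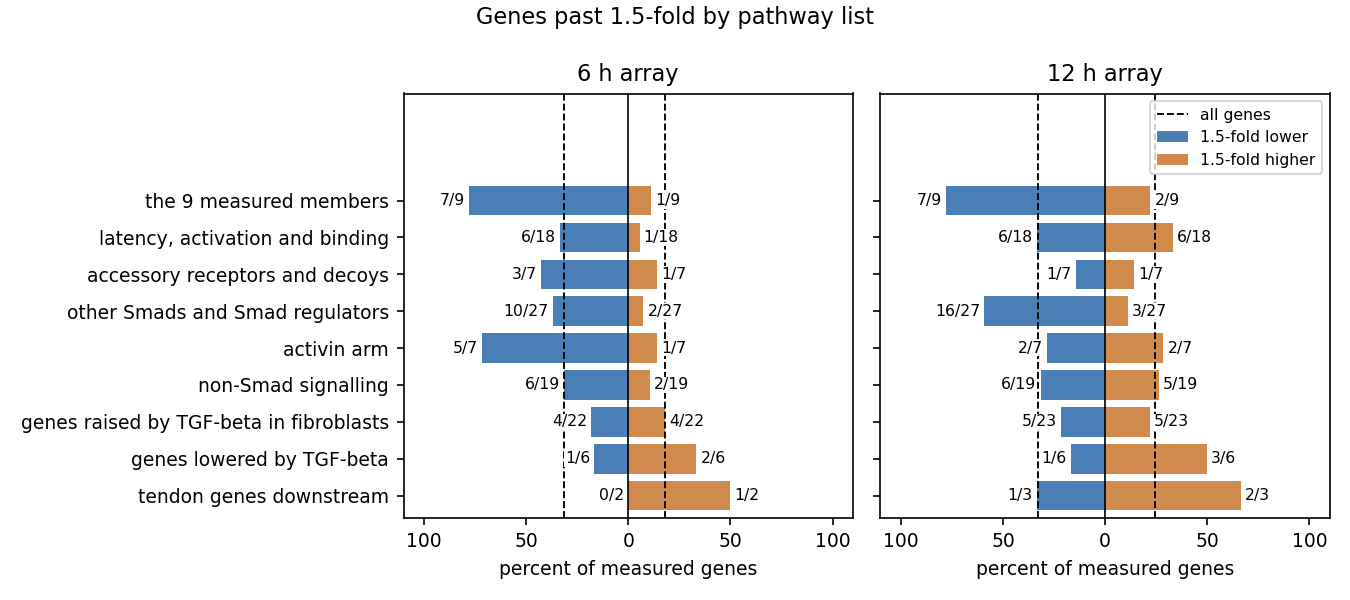
Percent of the measured genes of each list that were at least 1.5-fold lower (blue, to the left) or higher (orange, to the right) at 6 h and 12 h, with counts beside the bars and dashed lines at the shares of all genes. The 9 measured genes have the longest blue bar at both times, 7 of 9, and the Smad regulators follow at 12 h with 16 of 27.

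Of the genes with 2 or more spots on each array, 5340 were compared with the median pair of the 9, -0.76 at 6 h and -1.61 at 12 h. The nearest were Cpeb4 at -0.75 and -1.61, Gosr1 at -0.73 and -1.63, Lin54 at -0.72 and -1.58 and Tk1 at -0.81 and -1.60, at distances of 0.01 to 0.05 log2. Each had 2 spots. The spot SDs at 6 h and 12 h were 0.01 and 0.17 for Cpeb4 and 0.37 and 0.08 for Lin54. For Gosr1 they were 0.61 and 0.86, and for Tk1 0.62 and 2.65, so the 2 spots of Tk1 lay far apart at 12 h. With 2 arrays, likeness rests on 2 values per gene. Markers of other cell types had medians at 6 h and 12 h of 0.42 and 0.80 for leukocytes (6 of 8 measured), -0.25 and -0.57 for endothelium (3 of 6), 0.23 and 0.06 for skeletal muscle (3 of 6), and -1.88 and -0.73 for cartilage and bone (2 of 6). Leukocyte markers ran from -5.415 to 0.80 at 6 h, with 2 lower and 1 higher past 1.5-fold. At 12 h they ran from -2.31 to 1.70, with 2 lower and 3 higher. Endothelial markers ran from -2.03 to 1.76 at 6 h, so these medians hide markers on both sides of 0. The part of these cell types in the ratios above was not tested.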

How the data were processed

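RNA of control and sheared mouse tendon cells was hybridised to 2-colour spotted arrays, 1 per time point. Per spot, the deposited table gives 1 log ratio, taken as log2; the authors' normalization, background correction and filters are not given in the sources used here. Gene names for the 42624 spots came from the platform annotation, with 21701 spots having 1 symbol, 1124 several and 19799 none. Spans and promoters came from RefSeq (GRCm38.p6). Each array was centred on its median, and the single-symbol spots of a gene were summarised by their median, with no filter on low values. Spots sharing a clone accession were counted as one clone. Counts used 1.5-fold. No test was run, because each time point has 1 array. Counting was tested on simulated data. The genes and lists were chosen with earlier results of these data known. Beyond the 9 genes, up to 3 genes per list with values on both arrays were named, those whose absolute log2 averaged over both was greatest, 7 further Smad regulators chosen after their values were seen, and the 4 genes nearest to the median pair. Of the genes so chosen, 1 is not reported here. Alternatives were no centring, print-block centring, the mean of spots, several-symbol spots kept, 2 or more spots, equal spread of the arrays, a 2-fold threshold, and leaving out each spot or gene; 1 value per clone and the span comparison were added later. Python 3.11.15, pandas 2.3.3 and scipy 1.17.1 were used.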

Additional observations from a re-analysis of the deposited data

Results flagged for a closer look

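Egr1, an immediate early transcription factor with 1 spot, lay past 1.5-fold on opposite sides at the 2 times, at 0.67 at 6 h and -1.81 at 12 h. The difference was not tested.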

How the results depend on the processing

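With 1 array per time point the limits are the missing replicates, the missing dye swap and the unknown signal behind each ratio. Of 244 recomputed values of the single genes, 242 kept their sign. The 12 h minus 6 h difference of Smad7 turned to 0.108 with arrays of equal spread, and Tgfbr2 at 6 h to 0.074 relative to genes of like span. The count of kept signs was in part fixed in advance. Keeping several-symbol spots changed none of the 9 genes, and for a gene with 1 spot the mean of spots and 1 value per clone equal the main value. Of 320 recomputed counts and medians of single lists, 66 moved beyond their bounds. Relative to like span, chosen after seeing the data, the median of the 9 was -0.22 at 6 h and -0.92 at 12 h, and 1 gene was 1.5-fold lower at 6 h. Without centring, that median was -1.08 at 6 h and -2.09 at 12 h. Tgif1 was then the 1 gene higher at 12 h, since Tgfb1 at 0.40 fell short of 1.5-fold. The lists then had medians of -0.44 and -0.70, 9 genes higher at 6 h, and 14 higher and 57 lower at 12 h. Leaving out centring lowers every gene of an array by the same amount, and the share of all genes in that setting was not worked out. With 2 or more spots required, 4 of the 9 genes were lower at both times, 0 higher at 6 h and 1 at 12 h, and of the lists 23 were lower and 9 higher at 6 h and 16 higher at 12 h; the smaller number of genes is part of that setting. At 2-fold, 1 of the 9 was lower at 6 h and 1 higher at 12 h, and of the lists 17 were lower and 9 higher at 6 h and 14 higher at 12 h. Leaving out each gene in turn gave 0 to 1 higher at 6 h (0 without Tgif1) and 1 to 2 at 12 h (1 without Tgfb1 or Tgif1). Other causes were not tested. No paired analysis was possible because each time point has 1 array and no replicate numbers.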
